A study of Homo sapiens with 12 samples.

Results

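The Janus kinases JAK1, JAK2 and TYK2 and the transcription factors STAT2, STAT3, STAT4, STAT5A, STAT5B and STAT6 were followed in BT549 cells, a triple-negative breast cancer line, after knockdown and after overexpression of the estrogen receptor variant ERβ2. The genes were chosen by name, from their place in the pathway, and each was read from the transcript cluster (a set of probes summarised into 1 value per array) that the probe annotation assigns to its symbol alone. Of the 9 genes, 8 had such a cluster, the 3 kinases and 5 of the 6 STAT factors, among 17958 genes in all. STAT2 had none and its transcript was not analysed here, and the remaining genes of both families were not analysed either.

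The data were 12 arrays with 3 biological replicates in each of 4 groups. The cells of all groups were BT549, and all were transfected transiently. The control siRNA and ERβ2 siRNA groups were lysed 48 h after transfection. The empty vector group (EV, pcDNA3) and the ERβ2 plasmid group (pcDNA3-flag-ERβ2, a vector that drives FLAG-tagged ERβ2) were lysed 24 h after transfection. The study's methods name a different transfection reagent for siRNA and for plasmids and describe more than 1 set of siRNA against ERβ2, without saying which was used for the arrays. The comparison of ERβ2 siRNA with control siRNA asks which transcripts depend on ERβ2 in these cells, and that of the ERβ2 plasmid with EV asks which respond to more of it. Values are log2 values, so that a difference of 1 is a change of 2-fold. A transcript rose or fell, in the words used here, where limma's p, adjusted by Benjamini-Hochberg over all 17958 genes, was 0.1 or lower, and it was called where it also changed at least 1.5-fold. Changes are given with their standard error (SE) and, for the members, the 95% confidence interval (CI).

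JAK kinases sit on the inner tails of cytokine receptors that have no kinase of their own. When a cytokine joins the receptor chains, the kinases phosphorylate each other, the receptor and then a STAT factor, which pairs up, enters the nucleus and binds DNA. JAK1, JAK2 and TYK2 serve the receptors of the IL6 and LIF family, which act mainly through STAT3. JAK1 and TYK2 serve the type I interferon receptor, where STAT2 and IRF9 form part of the complex called ISGF3. JAK2 alone serves the prolactin and growth hormone receptors, which act through STAT5A and STAT5B. In breast, STAT5A is known for milk gene expression and STAT3 for involution and, when persistently active, for tumor growth. Activity of these proteins rests on phosphorylation, which transcript arrays do not read.

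The promoters of the genes that moved were set beside those of well-known STAT-driven genes. For these the RefSeq sequences of GRCh38.p14 were used, in windows from 250 bases before to 50 bases after each annotated start. The 120 bases before the start are shown for the 4 members whose change differed between ERβ2 knockdown and overexpression, each 5′ to 3′ on the strand of the gene, with every CpG dinucleotide in capitals. Where a gene had several starts, the window with the most CpG dinucleotides was taken.
JAK2, chr9:4984966-4985085, plus strand: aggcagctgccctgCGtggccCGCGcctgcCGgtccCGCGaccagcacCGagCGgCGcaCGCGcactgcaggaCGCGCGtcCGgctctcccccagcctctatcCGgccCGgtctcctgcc
JAK1, chr1:64966550-64966669, minus strand: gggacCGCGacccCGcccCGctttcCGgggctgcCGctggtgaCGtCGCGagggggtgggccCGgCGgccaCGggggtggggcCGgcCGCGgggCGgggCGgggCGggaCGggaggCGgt
STAT3, chr17:42388443-42388562, minus strand: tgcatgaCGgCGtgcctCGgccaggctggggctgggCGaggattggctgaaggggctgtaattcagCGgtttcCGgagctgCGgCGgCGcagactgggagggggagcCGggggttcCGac
STAT5B, chr17:42276392-42276511, minus strand: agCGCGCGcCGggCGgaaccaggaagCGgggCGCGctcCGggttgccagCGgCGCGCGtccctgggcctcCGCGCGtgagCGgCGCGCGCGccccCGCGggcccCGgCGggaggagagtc

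The windows shown differed in their number of CpG dinucleotides. That of STAT5B held 55, that of JAK1 43, that of JAK2 39 and that of STAT3 23, and the median over all 35114 windows of 27303 genes was 14. The windows of JAK1 and JAK2 were chosen as the richest of several, and the others held 9 and 15 for JAK1 and 11, 14 and 28 for JAK2. STAT6 with 12 and the richer window of STAT4 with 11 lay near that median, while TYK2 held 24 and the 3 windows of STAT5A 37, 5 and 3. The other window of STAT4 held 4. On chromosome 17, STAT5B, STAT5A and STAT3 are consecutive protein-coding genes. GAS (TTCNNNGAA), a palindrome that STAT dimers bind, occurred in 7.66% of all windows. The interferon-stimulated response element that ISGF3 binds, ISRE, searched as 2 GAAA half-sites with 2 bases between them, occurred in 3.57%. Both were searched on both strands, and sites with other spacings were not searched. Neither set of letters occurred in any of the 17 windows of the 9 members. Since most windows of all genes hold neither, this does not set the members apart. In the windows of the interferon-stimulated genes described further down, 24 of 39 held the ISRE letters, in 19 of the 28 genes that had a window (67.9%, against 4.38% of all genes). For 3 of those genes, picked for having a match before the start, 60 bases around it are shown, with the matching letters in capitals.
ISG15, chr1:1013365-1013424, plus strand: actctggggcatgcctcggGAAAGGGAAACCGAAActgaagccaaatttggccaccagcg
HERC5, chr4:88457020-88457079, plus strand: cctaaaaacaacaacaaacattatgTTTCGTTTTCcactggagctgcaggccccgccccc
IFI44L, chr1:78620350-78620409, plus strand: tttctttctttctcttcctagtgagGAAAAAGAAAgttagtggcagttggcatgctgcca

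The arrays were of similar brightness, with medians from 5.04 to 5.14. ESR1 (3.78 to 4.06) and PGR (3.34 to 3.7), the receptors that define hormone-responsive tumors, were at the low end on all arrays. ERBB2, the further receptor that a triple-negative line is named for lacking, read 7.85 to 8.27 and was not at the low end. The mesenchymal markers VIM (11.99 to 12.32) and CD44 (12.12 to 12.43) were bright and did not pass with ERβ2 siRNA. Of the other genes fixed to check the line, KRT18 (9.05 to 11.15), KRT8 (6.63 to 8.39) and FN1 (10.83 to 11.59) were higher with ERβ2 siRNA, by 0.88, 0.78 and 0.42 (adjusted p = 0.000251, 0.000767 and 0.00143 from limma). Their part in the rises of the members was not tested. The leukocyte markers PTPRC, CD3E, CD79A and LYZ stayed at or under 4.44 and the endothelial markers PECAM1, CDH5 and VWF at or under 4.08, while CD68, which is not confined to leukocytes, read 9.85 to 11.13 and was 0.36 higher with ERβ2 siRNA (adjusted p = 0.00764 from limma). ESR2, the gene of ERβ2, gave no check of the siRNA label, with 4.03, 3.88 and 4.05 on the control siRNA arrays and 4.12, 3.99 and 3.8 on the ERβ2 siRNA arrays (change −0.02, SE 0.09, adjusted p = 0.913 from limma). Its signal was dim, with a mean of 4.11 over the arrays, above only 23.2% of genes, so a fall could hardly be seen. The paper reports lower ERβ2 mRNA by qPCR after ERβ2 siRNA in BT549 cells. On the ERβ2 plasmid arrays ESR2 read 4.35, 4.72 and 4.37, all above the EV values of 4.08, 3.93 and 4.01, although the change of 0.47 did not pass (SE 0.10, adjusted p = 0.449 from limma).

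With ERβ2 siRNA, 5 of the 8 measured members rose and none fell. JAK2 rose 1.6-fold, and JAK1, STAT3, STAT5B and STAT5A rose 1.19- to 1.23-fold, while TYK2, STAT4 and STAT6 did not pass. Over all genes 18.3% rose and 17.5% fell. The median change of the 8 members was 0.27, beside −0.03 over all genes. JAK2 was the only member past the fold of 1.5, a call that 4.52% of all genes met in either direction. In all 5 that rose, the 3 ERβ2 siRNA arrays lay above the 3 control arrays. Such a gap, in one direction or the other, was seen in 42.4% of all genes. Since bulk RNA was read, a change in a transcript per cell and a change in the share of cells that carry it cannot be told apart.

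JAK2 had the largest change of the measured members with ERβ2 siRNA. Its log2 value was 7.43, 7.38 and 7.58 with control siRNA and 8.19, 8.08 and 8.15 with ERβ2 siRNA. It was 8.4, 8.64 and 8.49 with EV and 8.55, 8.51 and 8.42 with the ERβ2 plasmid. The control siRNA arrays were the lowest, the ERβ2 siRNA arrays lay between, and both plasmid groups overlapped at the top. The rise with ERβ2 siRNA was 0.68 (95% CI 0.52 to 0.83, SE 0.07, limma adjusted p = 0.000206), and 3.06% of all genes changed more. Over the 18 alternative settings it lay between 0.64 and 0.74.

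JAK1, the kinase shared by the interferon and IL6 families of receptors, was high with ERβ2 siRNA and level elsewhere. It read 11.41, 11.47 and 11.46 with control siRNA and 11.73, 11.77 and 11.75 with ERβ2 siRNA. With EV it read 11.4, 11.48 and 11.45, and with the ERβ2 plasmid 11.45 on all 3 arrays. Only the ERβ2 siRNA arrays stood apart, and the other 3 groups overlapped. The rise was 0.30 (95% CI 0.18 to 0.42, SE 0.05, 1.23-fold, limma adjusted p = 0.00322). The cluster was brighter than that of 98.7% of genes, which ranks signals, not numbers of transcripts.

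TYK2, which serves the type I interferon receptor together with JAK1, did not pass with ERβ2 siRNA. Its change was −0.09 (95% CI −0.29 to 0.11, SE 0.09, limma adjusted p = 0.483). The 3 ERβ2 siRNA arrays, at 8.11, 7.87 and 7.79, spread on both sides of the control arrays at 7.94, 8.08 and 8.02. The 3 kinases thus showed 3 patterns over the groups. JAK2 stepped up from control siRNA to ERβ2 siRNA to the plasmid groups. JAK1 stood out in a single group, and TYK2 had neighbouring groups that overlapped throughout.

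**Figure D1:**
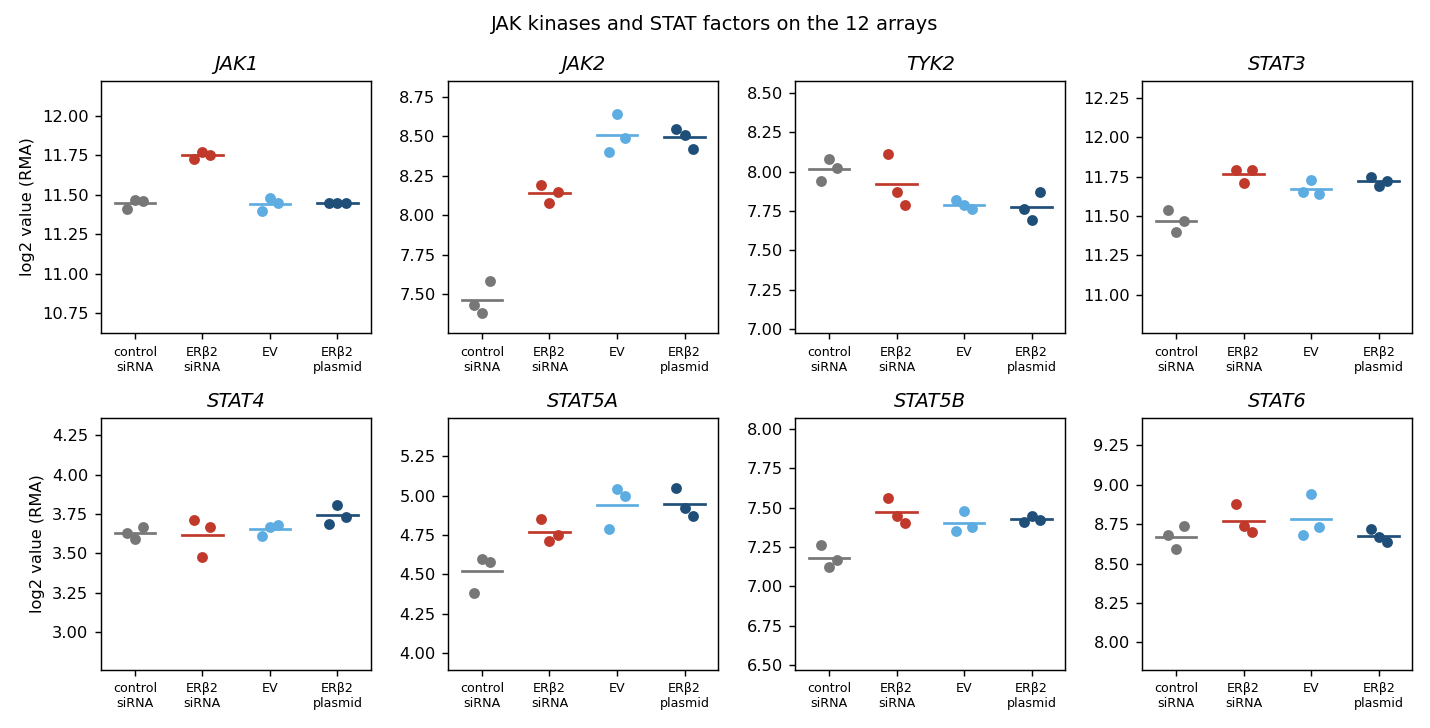
Log2 value (RMA) of each measured JAK and STAT transcript on the 12 arrays, 1 panel per gene, each with its own position on the vertical axis but the same span. Points are arrays (n = 3 per group) and bars are group means, and JAK2 runs from 7.38 to 8.64 while JAK1 stands apart in the ERβ2 siRNA group alone.

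STAT3, the main factor downstream of IL6, rose with ERβ2 siRNA by 0.29 (95% CI 0.16 to 0.43, SE 0.06, 1.23-fold, limma adjusted p = 0.00757). The arrays read 11.54, 11.4 and 11.47 with control siRNA and 11.79, 11.71 and 11.79 with ERβ2 siRNA. With EV they read 11.65, 11.73 and 11.64, and with the ERβ2 plasmid 11.75, 11.69 and 11.72. The control siRNA group was the lowest and apart, and the other 3 groups overlapped their neighbours. The signal was among the brightest of the arrays, above 99% of genes.

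STAT5B, the broadly expressed STAT5 factor, followed the same order of groups as STAT3. It read 7.26, 7.12 and 7.17 with control siRNA and 7.56, 7.45 and 7.4 with ERβ2 siRNA, a rise of 0.29 (95% CI 0.14 to 0.44, SE 0.07, 1.22-fold, limma adjusted p = 0.0128). With EV it read 7.35, 7.48 and 7.38 and with the ERβ2 plasmid 7.41, 7.45 and 7.42. The control siRNA group was again alone at the bottom.

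STAT5A, its close paralog and the STAT5 factor best known from the mammary gland, gave a signal above that of 34% of genes. It read 4.38, 4.6 and 4.58 with control siRNA and 4.85, 4.71 and 4.75 with ERβ2 siRNA. The rise was 0.25 (95% CI 0.08 to 0.42, SE 0.08, 1.19-fold, limma adjusted p = 0.0389). It was lost without ERβ2 siRNA replicate 1 (0.21, adjusted p = 0.12) and with the methods' t-test after Benjamini-Hochberg adjustment (adjusted p = 0.121). With EV it read 4.79, 5.04 and 5, and with the ERβ2 plasmid 5.05, 4.92 and 4.87. Whether probes of either STAT5 cluster also bind the transcript of the paralog is not known here.

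STAT6 and STAT4, which carry the signals of IL4 and of IL12, did not pass with ERβ2 siRNA. STAT6 changed by 0.10 (95% CI −0.06 to 0.26, SE 0.07, limma adjusted p = 0.306), and its 12 arrays ran from 8.59 to 8.94 with neighbouring groups overlapping. STAT4 changed by −0.01 (95% CI −0.17 to 0.15, SE 0.07, limma adjusted p = 0.936). Its arrays ran from 3.48 to 3.81, a signal above only 14.3% of genes, near the floor at which leukocyte markers also read.

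With the ERβ2 plasmid against EV, none of the 8 members passed. Their adjusted p-values from limma lay between 0.81 and 0.992, and only 2 of all 17958 genes rose (0.0111%) and none fell. The confidence intervals were narrow. JAK2 changed by −0.02 (95% CI −0.19 to 0.15), STAT3 by 0.05 (95% CI −0.08 to 0.17) and JAK1 by 0.01 (95% CI −0.11 to 0.12). These intervals do not reach the rises estimated with ERβ2 siRNA or, in the other direction, falls of that size. For STAT3 the interval overlapped that of its rise with ERβ2 siRNA (95% CI 0.16 to 0.43). STAT5B changed by 0.02 and STAT5A by 0.00. STAT4 was the only member whose groups did not overlap, with 3.69, 3.81 and 3.73 against 3.61, 3.67 and 3.68, a gap that 12% of all genes showed (change 0.09, SE 0.06, limma adjusted p = 0.81, not passed). STAT6 had the change farthest from 0, −0.11 (95% CI −0.28 to 0.07, adjusted p = 0.833 from limma).

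**Figure D2:**
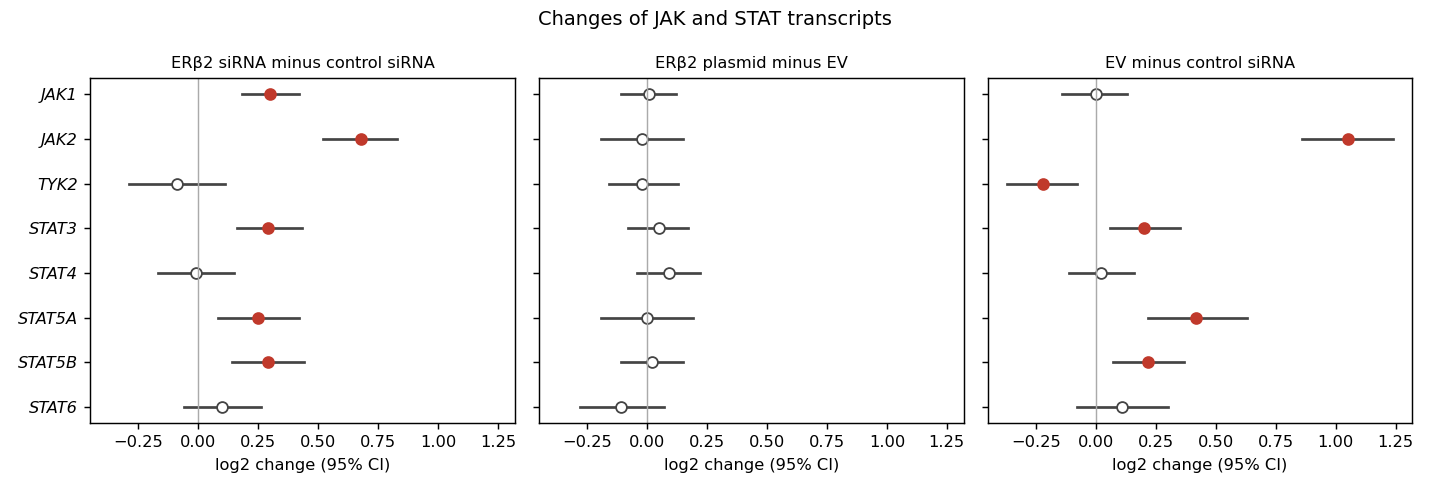
Log2 change of each measured JAK and STAT transcript with its 95% confidence interval, in 3 comparisons of 3 arrays with 3. Filled red points passed an adjusted p of 0.1 from limma and open points did not, so that 5 points are filled for ERβ2 siRNA, none for the ERβ2 plasmid and 5 for EV against control siRNA, where TYK2 lies to the left.

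The effects of knockdown and of overexpression were then tested against each other in 1 fit over the 12 arrays, as the knockdown change minus the overexpression change. Of the 8 members, 4 had a difference above 0 that passed, beside 15% of all genes. The difference was 0.69 for JAK2 (SE 0.10, adjusted p = 0.000454 from limma), 0.30 for JAK1 (SE 0.06, adjusted p = 0.00567), 0.25 for STAT3 (SE 0.08, adjusted p = 0.0363) and 0.26 for STAT5B (SE 0.08, adjusted p = 0.044). That for STAT5B was lost after a further quantile normalization (adjusted p = 0.101), without control siRNA replicate 2 (0.1) and without ERβ2 siRNA replicate 1 (0.102). STAT5A had a difference of the same size with a wider error, 0.25 (SE 0.12, adjusted p = 0.163). For STAT6 (0.21, adjusted p = 0.188), TYK2 (−0.07, adjusted p = 0.688) and STAT4 (−0.10, adjusted p = 0.476) it did not pass either. For the 4 that passed, the overexpression changes lay between −0.02 and 0.05.

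Both control groups differed from each other as well. EV minus control siRNA sets 24 h against 48 h, plasmid against siRNA and one reagent against another, and these cannot be told apart. This comparison shares the control siRNA arrays with the knockdown and the EV arrays with the overexpression. Of the members, 4 rose, beside 19.2% of all genes, and TYK2 fell, beside 22.4%. Their median change was 0.16, while that of all genes was −0.06. JAK2 was 1.05 higher with EV (95% CI 0.86 to 1.24, SE 0.08, 2.07-fold, limma adjusted p = 4e-05), the only member past 1.5-fold, as were 6.87% of all genes in either direction.

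STAT5A was 0.42 higher with EV than with control siRNA (SE 0.09, 1.34-fold, adjusted p = 0.00795 from limma). STAT5B was 0.22 higher (SE 0.07, adjusted p = 0.0365) and STAT3 0.20 higher (SE 0.06, adjusted p = 0.0417), and neither passed without control siRNA replicate 2 (adjusted p = 0.119 and 0.135), which left 2 members that rose. STAT3 also missed the threshold without control siRNA replicate 3 (adjusted p = 0.101), and STAT5B after a further quantile normalization (0.12, adjusted p = 0.15). TYK2 was 0.22 lower, written as a change of −0.22 (95% CI −0.37 to −0.08, SE 0.06, limma adjusted p = 0.0263), with EV at 7.82, 7.79 and 7.76 below control siRNA at 7.94, 8.08 and 8.02. The groups of these 5 members did not overlap, as was the case for 47.2% of all genes. JAK1 differed by 0.00 (95% CI −0.14 to 0.13, adjusted p = 0.971), STAT4 by 0.02 and STAT6 by 0.11 (adjusted p = 0.779 and 0.317).

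Across the 12 arrays, STAT3 and STAT5B had a Pearson r of 0.94 and JAK2 and STAT5A one of 0.93. JAK2 had one of 0.79 with STAT5B and of 0.78 with STAT3, while JAK1 and JAK2 had one of 0.00 and JAK2 and TYK2 one of −0.73. These values describe 12 arrays that come from 4 groups and were normalized together, so they mostly restate the order of the groups. The transcripts most like JAK2 were PGM5 (r = 0.997), CCDC68 (0.994) and RNF103 (0.992). For JAK1 they were TMEM263 (r = 0.989), CXADR (0.989) and CD248 (0.988), and for STAT3 GID8 (r = 0.98), GUCY1A2 (0.978) and HIPK3 (0.977). For STAT5B they were VGF (r = 0.971), BCAR1 (0.971) and ANKRD27 (0.963), and for STAT5A CYB5R2 (r = 0.947), CPOX (0.945) and ITGA11 (0.942).

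The ligands upstream of the kinases were led by IL6. Of 33 measured cytokines, 3 rose, 3 fell and 27 did not pass with ERβ2 siRNA, with a median of −0.07. Over all genes 18.3% rose and 17.5% fell, with a median of −0.03. Only 5 of the 33 had a mean log2 value of 5 or more over the arrays. With genes under 5 left out, 2 cytokines rose and 0 fell. IL6, the cytokine that signals through JAK1, JAK2, TYK2 and STAT3, read 7.47, 7.69 and 7.75 with control siRNA and 8.96, 8.98 and 8.95 with ERβ2 siRNA, a rise of 1.33 (SE 0.08, 2.51-fold, adjusted p = 1.63e-05 from limma). It was higher still in both plasmid groups, at 10.88 to 10.96 with EV and 11.1 to 11.15 with the ERβ2 plasmid. LIF, a cytokine of the same family, rose by 0.46 with ERβ2 siRNA (adjusted p = 0.00511 from limma), IFNE rose by 0.41, and IL11, again of the IL6 family, fell by 0.32 (adjusted p = 0.0119 and 0.0924). Both IFNE and IL11 were dim, with means of 4.07 and 4.98 over the arrays. After centring of each array on its median 0 of the 33 fell, and after quantile normalization or cyclic loess 1.

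LIF was also 1 of the 2 genes that rose with the ERβ2 plasmid, from 8.15, 8.28 and 8.18 with EV to 8.75, 8.75 and 8.8. The change was 0.56 (SE 0.06, 1.48-fold, adjusted p = 0.0794 from limma), the largest rise of the 17958 genes. The other gene was the histone gene H2BC8 (0.53, adjusted p = 0.0794). LIF no longer passed in 11 of 18 alternatives, over which its change lay between 0.42 and 0.60 and its adjusted p between 0.00267 and 0.786, among them those without EV replicate 1 or 3 and without any 1 of the 3 ERβ2 plasmid arrays (0.442 to 0.704). A second, dimmer cluster of LIF read 5.22, 5.53 and 5.61 with EV and 5.89, 5.52 and 5.78 with the ERβ2 plasmid, which overlap. That cluster read 4.77, 4.96 and 4.91 with control siRNA and 4.88, 5.05 and 5.09 with ERβ2 siRNA, which overlap as well.

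Of 41 measured receptor chains of the pathway, 13 rose with ERβ2 siRNA, 3 fell and 25 did not pass, with a median of 0.09. Over all genes 18.3% rose and 17.5% fell, with a median of −0.03. IL7R, the receptor chain for IL7, rose by 0.95 (SE 0.08, 1.93-fold, adjusted p = 7.47e-05 from limma). PRLR, the prolactin receptor that works through JAK2, rose by 0.77 (1.71-fold, adjusted p = 4.46e-05) and LIFR, the LIF receptor, by 0.73 (1.66-fold, adjusted p = 9.4e-05). IL6ST, the signalling chain shared by the IL6 family, rose by 0.67 (1.59-fold, adjusted p = 0.000218), from 9.76, 9.88 and 9.71 to 10.36, 10.49 and 10.5. IL10RB, a chain of the IL10 and type III interferon receptors that binds TYK2, fell by 0.73 (SE 0.06, adjusted p = 8.03e-05).

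**Figure D3:**
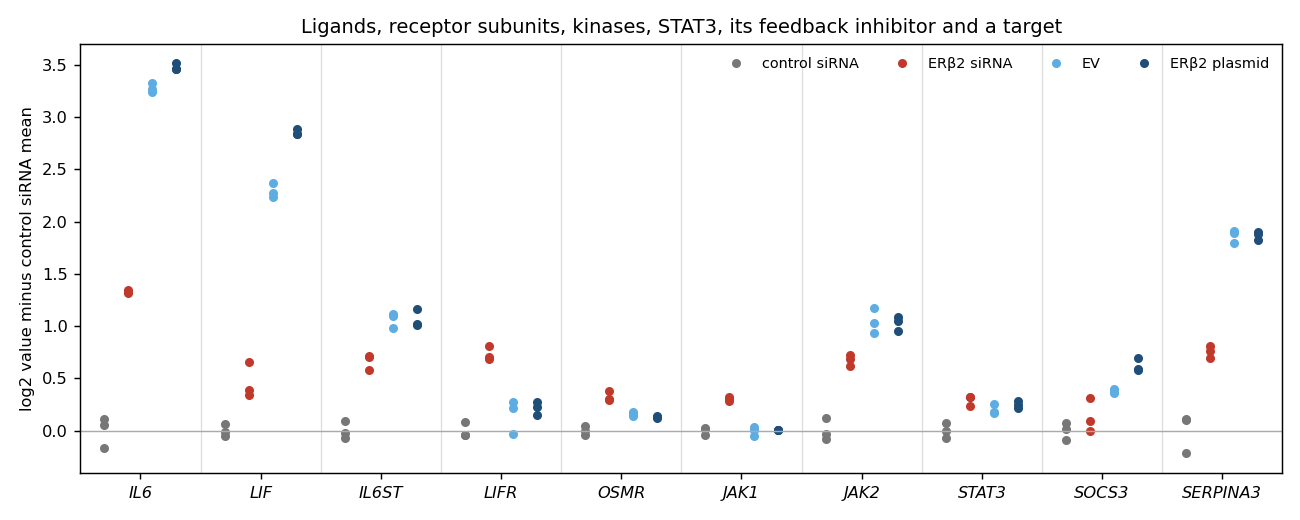
Log2 value of 10 transcripts on each of the 12 arrays minus the control siRNA mean of that transcript, for cytokines (IL6, LIF), receptor chains (IL6ST, LIFR, OSMR), kinases, STAT3, its inhibitor SOCS3 and the target SERPINA3. Points are arrays, 3 per group, and IL6, LIF, IL6ST, JAK2, SOCS3 and SERPINA3 are higher in both plasmid groups than with ERβ2 siRNA, while LIFR, OSMR and JAK1 are highest with ERβ2 siRNA.

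The inhibitors of the pathway moved in both directions with ERβ2 siRNA. Among the 8 SOCS and CIS genes, whose proteins restrain signalling by cytokine receptors, 2 rose and 3 fell. Among all genes 18.3% rose and 17.5% fell. SOCS6 rose by 0.65 (SE 0.06, 1.57-fold, adjusted p = 0.00012 from limma), SOCS2 rose by 0.35, SOCS7 fell by 0.47 and SOCS4 fell by 0.21. SOCS3, the feedback inhibitor that STAT3 induces, did not pass (0.14, adjusted p = 0.29). Of 18 measured PIAS proteins, phosphatases and adaptors, 6 rose and 5 fell, with a median of −0.05. DUSP22, a phosphatase, rose by 0.69 (adjusted p = 0.000239), NMI, a STAT-binding protein, by 0.45 (adjusted p = 0.00299), and PTPN2 and PTPN1, which remove phosphate from JAK kinases, by 0.39 and 0.35 (adjusted p = 0.00105 and 0.00427). After centring, 1 SOCS gene and 0 of the 18 fell.

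Genes known as STAT targets were read next, and lists of this kind overlap (BCL2L1, BCL6 and CCND1 stand under both STAT3 and STAT5). IL6ST, given above as a receptor chain, also counts among the STAT3 targets that rose. With ERβ2 siRNA, 10 of 24 STAT3 targets rose and 5 fell, with a median of 0.12. The shares over all genes were 18.3% and 17.5%, with a median of −0.03. SERPINA3, an acute-phase protease inhibitor, rose by 0.76 (SE 0.09, 1.69-fold, adjusted p = 0.000573 from limma) and IER3, an early response gene, by 0.55 (adjusted p = 0.000254), while BCL2L1, which protects from cell death, fell by 0.51 (adjusted p = 0.000784). Of 18 STAT5 targets, 3 rose and 5 fell, with a median of −0.11. IL2RA, a chain of the IL2 receptor, fell by 0.65 (adjusted p = 0.000374) and CCND1, a G1 cyclin, by 0.42 (adjusted p = 0.000626), while BCL6, a repressor, rose by 0.46 (adjusted p = 0.000408). Of 19 measured targets of STAT6 or STAT4, 5 rose and 1 fell. FURIN, a protease that processes precursors, rose by 0.44 (adjusted p = 0.00327), POSTN by 0.41 (adjusted p = 0.0232), TGM2 by 0.35 (adjusted p = 0.00248) and IL4R by 0.32 (adjusted p = 0.00601). With the ERβ2 plasmid none of the genes in the 7 lists other than the ligands passed.

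Interferon-stimulated genes, the classical readout of ISGF3, did not move in one direction with ERβ2 siRNA. Of 34, 4 rose, 7 fell and 23 did not pass, with a median of −0.03. Over all genes 18.3% rose and 17.5% fell. After centring of each array on its median, 6 rose and 5 fell. IFI44L, MX1 and IFIT1, the top 3 of all genes in their rise with EV, were dim in both siRNA groups. Their means were 4.91, 4.94 and 5.24 with control siRNA and 4.88, 4.64 and 4.93 with ERβ2 siRNA. At such dim signals a fall may go unseen. MX2, an antiviral GTPase, rose by 0.81 (SE 0.08, 1.75-fold, adjusted p = 0.000182 from limma), ISG15, a ubiquitin-like protein, by 0.50 (adjusted p = 0.00164) and HERC5, its ligase, by 0.48 (adjusted p = 0.0108), while IRF9, the DNA-binding partner of STAT2, fell by 0.59 (adjusted p = 0.000354). In EV against control siRNA, 33 of the 34 rose, each by more than 1.5-fold, with a median of 4.37. In that comparison 19.2% of all genes rose, and 6.87% passed 1.5-fold in either direction. IFI44L had the largest rise of all genes, from 4.8, 4.83 and 5.09 to 11.79, 11.63 and 11.73. That was a change of 6.81, or 112-fold. IFITM2 was the exception (−0.01, adjusted p = 0.96), at 3.96 with EV and 3.97 with control siRNA.

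The interferon gene IFNB1 read 3.64, 3.68 and 3.35 with control siRNA and 7.43, 7.56 and 7.1 with EV (3.81 higher, SE 0.13, adjusted p = 1.75e-07 from limma). It read 3.48, 3.83 and 3.69 with ERβ2 siRNA and 7.2, 7.01 and 7.21 with the ERβ2 plasmid, so that the cells of both plasmid groups stood apart from those of both siRNA groups. The members of the family were read on the same arrays. With EV against control siRNA, JAK2, STAT5A, STAT5B and STAT3 rose and TYK2 fell, as given above, and JAK1 did not pass. Of these 5, JAK2 alone stood apart from both siRNA groups in both plasmid groups. What part this shift between the control groups has in the levels of the members was not tested.

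**Figure D4:**
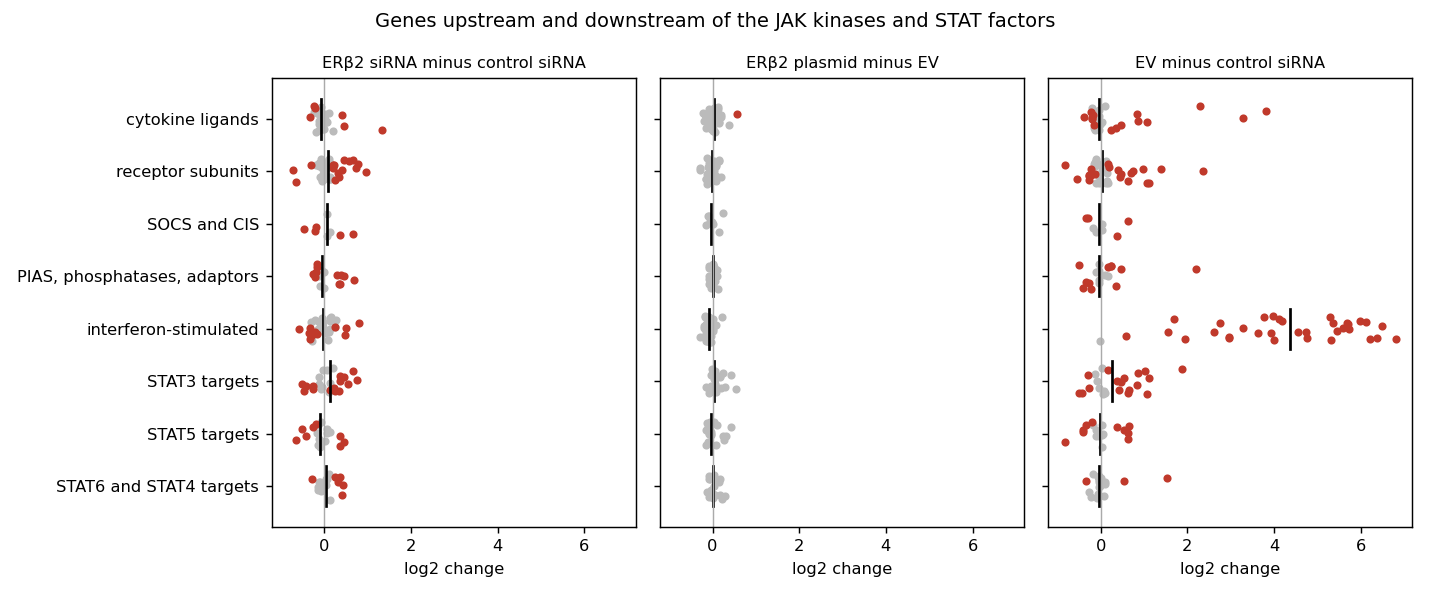
Log2 change of each measured gene in 8 lists of genes around the JAK kinases and STAT factors, in the 3 comparisons. Red points passed an adjusted p of 0.1 from limma, grey points did not, and black bars are list medians, with that of the interferon-stimulated genes at 4.37 for EV against control siRNA and at −0.03 for ERβ2 siRNA.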

How the data were processed

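Total RNA of BT549 cells was read on 12 Affymetrix Human Gene 1.1 ST arrays. Per the labels, the authors made the deposited log2 values with RMA (background correction, normalization between arrays, 1 value per transcript cluster) in Expression Console. The sources used here give no version, and the base was taken as 2. Of 33297 clusters, 19181 had 1 gene symbol in the probe annotation, 2055 had several and 12061 were not listed. For 895 genes with several clusters the brightest on average was kept, giving 17958 genes, and no member had more than 1. No filter on dim genes was applied.

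Groups were compared with limma 3.58.1 (lmFit and eBayes) in R 4.3.3, 3 arrays against 3, with Benjamini-Hochberg adjustment over all genes, and the difference of effects in 1 fit over all arrays. The procedure was tested on simulated data. The members and gene lists were chosen with earlier results of these data known, so the lists are described by counts and medians without a test of the list. Named beside the members were up to 4 genes of each list with the largest change among those that passed with ERβ2 siRNA, and the 3 transcripts most like each member that rose. IFNB1, IFI44L, MX1, IFIT1, IFITM2, SOCS3, PIM1, JUNB and H2BC8 were chosen after their values were seen. The receptor chains IFNGR1, IFNGR2, IFNAR1, IFNAR2, IFNLR1 and OSMR were also named outside that rule. Alternatives were other choices of clusters, a filter on genes with a mean under 5, quantile normalization, cyclic loess, centring, the methods' t-test with Benjamini-Hochberg or q-values, limma's robust prior with a trend, 1 fit for all groups, an adjusted p under 0.05, a block for the replicate number, and the omission of each array. Same-numbered arrays did not deviate together (correlations of their deviations from the group means of 0.22, 0.14 and 0.01 for the siRNA arrays and −0.14, −0.09 and 0.1 for the plasmid arrays), so the numbers were not taken to pair them. The labels call the replicates biological, and 3 arrays per group limit the precision.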

Additional observations from a re-analysis of the deposited data

Results flagged for a closer look

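Of the 8 measured members, 4 had an effect of ERβ2 knockdown that differed from the effect of ERβ2 overexpression, by the test of that difference over the 12 arrays. As knockdown minus overexpression on the log2 scale, the difference was 0.69 for JAK2 (0.68 with ERβ2 siRNA against −0.02 with the ERβ2 plasmid), 0.30 for JAK1 (0.30 against 0.01), 0.25 for STAT3 (0.29 against 0.05) and 0.26 for STAT5B (0.29 against 0.02). Each was higher in 3 of 3 ERβ2 siRNA arrays than in any control siRNA array, and for each the ERβ2 plasmid arrays overlapped the EV arrays. Groups that did not overlap, in one direction or the other, were seen in 42.4% of all genes for siRNA and 12% for the plasmids. For STAT5B the difference no longer passed when either control siRNA replicate 2 or replicate 1 of ERβ2 siRNA was left out. The siRNA and plasmid groups also differed in time, reagent and cargo, which cannot be told apart from the direction of the ERβ2 change.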

How the results depend on the processing

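No member that passed changed direction under any of the alternatives run. The number of members that rose with ERβ2 siRNA was 5, and 4 to 5 when 1 array was left out. With the ERβ2 plasmid it was 0 under each alternative. For EV against control siRNA it was 4, and 2 to 4 when 1 array was left out, the lowest without control siRNA replicate 2. Over the single members, the side of the threshold was unchanged in 140 of 142 fits for ERβ2 siRNA, 142 of 142 for the ERβ2 plasmid (where none passed), 138 of 142 for EV and 162 of 166 for the difference of effects. The difference for STAT5B was lost with quantile normalization (0.18, adjusted p = 0.101 from limma), without control siRNA replicate 2 (0.23, adjusted p = 0.1) and without ERβ2 siRNA replicate 1 (0.22, adjusted p = 0.102), while that for STAT5A passed without EV replicate 1 (0.32, adjusted p = 0.0626). Centring each array on its median left 0 of 3 falls among the ligands, 1 of 3 among the SOCS genes and 0 of 5 among the PIAS proteins, phosphatases and adaptors with ERβ2 siRNA. With the replicate number as a block, 5 members rose with ERβ2 siRNA, 0 with the ERβ2 plasmid and 4 with EV, and LIF no longer passed with the ERβ2 plasmid (0.56, adjusted p = 0.786). The cause of these changes was not tested.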

Other observations

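Outside the members, PIM1, a kinase gene induced by both STAT3 and STAT5, differed in its response between the siRNA and plasmid arrays. It read 8.54, 8.48 and 8.3 with control siRNA and 8.13, 8.15 and 8.25 with ERβ2 siRNA, where it fell by 0.26 (SE 0.08, adjusted p = 0.0314 from limma). It read 9.13, 9.1 and 9.05 with EV and 9.6, 9.46 and 9.52 with the ERβ2 plasmid, which missed the threshold (change 0.43, SE 0.06, limma adjusted p = 0.218). The difference of both effects was −0.70 (SE 0.10, adjusted p = 0.000255 from limma). SOCS3 read 6.96, 7 and 6.97 with EV and 7.18, 7.19 and 7.3 with the ERβ2 plasmid. These groups do not overlap, as in 12% of all genes, and the change of 0.25 missed the threshold (limma adjusted p = 0.459). JUNB, a further STAT3 target, changed by 0.20 there (adjusted p = 0.529 from limma). These 3 genes were picked after their values were seen. Over the 24 STAT3 targets, changes with the ERβ2 plasmid ran from −0.16 to 0.54, with a median of 0.05, and none passed.

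Among the chains of the interferon receptors, which carry JAK1, JAK2 and TYK2, 3 rose with ERβ2 siRNA and IL10RB, the chain of the type III receptor described above, fell by 0.73. Over all genes 18.3% rose and 17.5% fell. IFNGR1 rose by 0.45 (SE 0.05, adjusted p = 0.000524 from limma), IFNAR2 by 0.41 (SE 0.07, adjusted p = 0.00314) and IFNAR1 by 0.22 (SE 0.06, adjusted p = 0.0241), while IFNGR2, at 0.13, and IFNLR1, at −0.19, did not pass (adjusted p = 0.166 and 0.124). OSMR, the oncostatin M receptor, rose by 0.33 (SE 0.06, adjusted p = 0.00311).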
